A study of Mus musculus with 4 samples.

Results

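The 38 genes described here are genes of DNA replication and mitosis, taken by name from the 17813 genes of a single-cell table of mouse liver tumour tissue. They were chosen by function and not by a measured value, and all 38 had UMIs (unique molecular identifiers, which count captured RNA molecules). By the phase in which they act, they are 3 G1 cyclins (Ccnd1, Ccnd2 and Ccnd3), 2 cyclins of the G1/S transition (Ccne1 and Ccne2) and 8 replication genes (Pcna, Mcm2, Mcm3, Mcm4, Mcm5, Mcm6, Mcm7 and Gins2). A further 4 supply nucleotides for DNA synthesis (Rrm1, Rrm2, Tyms and Tk1). The mitosis group holds 18 genes (Mki67, Top2a, Cdk1, Ccnb1, Ccnb2, Ccna2, Birc5, Ube2c, Cdc20, Cenpe, Cenpf, Aurka, Aurkb, Bub1, Plk1, Tpx2, Nusap1 and Kif11), and 3 broadly expressed genes are linked to proliferation (Stmn1, Hmgb2 and Tuba1b).

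The samples were HCC (hepatocellular carcinoma) tissue from C57BL/6 mice aged 5 months, 2 labelled Miz1F/F and 2 labelled Miz1ΔHep, after the zinc finger transcription factor Miz1 (gene Zbtb17). All mice were given DEN (diethylnitrosamine, a liver carcinogen) at 25 mg/kg when 2 weeks old and then carbon tetrachloride (CCl4, 0.5 ml/kg) every week. The labels do not name the recombinase or its promoter. Livers were digested and cells were captured on a 10x Genomics Chromium with the 3' v2 kit, which reads 1 tag near the end of each captured transcript. The 24802 cells carried 4 barcode suffixes, called sets 1 to 4 here, which nothing in the sources used here ties to a sample. No value below therefore compares genotypes, sets are not replicates of a group, and no p-values were computed. The sets held 2574 to 11179 cells and 9093921 to 35033778 UMIs, with a median of 906 to 2648 UMIs per cell. The sets shared 373 barcodes, carried by 748 cells, and all cells with the barcode were of the same class for 104 of the 373.

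A cell that enters the cycle first makes D-type cyclins, which with their kinases inactivate the retinoblastoma protein and release E2F factors. Cyclin E, the MCM helicase, PCNA and ribonucleotide reductase then serve DNA replication, and the spindle, kinetochore and anaphase genes are made late, when the MuvB core leaves the repressive DREAM complex and joins B-MYB and FOXM1. In liver, hepatocytes rarely divide unless tissue is lost, which CCl4 causes, whereas mature neutrophils do not divide at all.

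Levels are UMIs of a gene per 1000000 UMIs of a class of cells (CPM), with exact Poisson intervals at 95% that cover counting error only. Classes came from clustering without the 38 genes and without 104 further cell cycle genes, 142 in all, so the members did not shape them. Of 25 clusters, 24 were named from fixed marker lists into 17 classes, and 392 cells with both Kupffer cell and endothelial markers stayed unnamed. A cluster of 143 cells with neutrophil markers was kept apart, after its genes were seen, as Camp/Ngp neutrophil-like, since Camp, Ngp, Elane and Mpo, granule protein genes of immature granulocytes, led it. Values of a set are given where it held at least 20 cells of the class, and the 60 stellate cell/fibroblast-like cells, of which set 3 held 46, are left out of the orders together with the unnamed cells.

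The 130 bases before the start of 6 members, picked as examples, are shown first. Windows from 250 bases before to 50 after the start were available from RefSeq (GRCm38.p6) for 29 of the 38 genes. Capitals mark the CHR element bound by MuvB complexes (TTTGAA or, on the other strand, TTCAAA), the NF-Y box (CCAAT or ATTGG) and the E2F motifs TTCCCGC and TTTGGCGC, each read 5′ to 3′ on the strand of the gene. Top2a lies at chr11:99024190-99024319 (minus strand), Ube2c at chr2:164769799-164769928 (plus), Cdc20 at chr4:118437344-118437473 (minus) and Kif11 at chr19:37376252-37376381 (plus). The replication gene Mcm6 lies at chr1:128359706-128359835 (minus) and Rrm1 at chr7:102441565-102441694 (plus).
Top2a: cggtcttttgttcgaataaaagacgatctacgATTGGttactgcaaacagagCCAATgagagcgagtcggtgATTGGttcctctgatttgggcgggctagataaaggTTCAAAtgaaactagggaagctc
Ube2c: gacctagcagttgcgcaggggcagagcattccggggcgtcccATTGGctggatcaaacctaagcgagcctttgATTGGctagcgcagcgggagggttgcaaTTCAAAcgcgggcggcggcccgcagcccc
Cdc20: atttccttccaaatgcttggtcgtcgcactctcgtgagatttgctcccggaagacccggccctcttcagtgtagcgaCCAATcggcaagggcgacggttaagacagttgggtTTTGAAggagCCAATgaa
Kif11: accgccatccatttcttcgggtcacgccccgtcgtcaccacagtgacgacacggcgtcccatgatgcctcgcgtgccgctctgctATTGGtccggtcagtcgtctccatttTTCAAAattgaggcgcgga
Mcm6: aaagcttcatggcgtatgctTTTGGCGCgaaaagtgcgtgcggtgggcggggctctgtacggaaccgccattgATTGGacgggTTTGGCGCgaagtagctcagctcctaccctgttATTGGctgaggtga
Rrm1: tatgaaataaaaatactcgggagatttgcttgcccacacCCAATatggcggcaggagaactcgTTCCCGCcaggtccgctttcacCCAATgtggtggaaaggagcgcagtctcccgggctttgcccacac
The 4 mitosis promoters each hold a CHR element and at least 1 NF-Y box, and the other 2 hold an E2F motif and NF-Y boxes but no CHR element in this stretch. The 4 are among the 10 mitosis members with a CHR element, of 15 with a sequence, so they do not stand for the whole group.

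Over the whole windows, 10 of the 15 mitosis members with a sequence held a CHR element (66.7%), beside 20.2% of the 27025 genes in the table, and 13 of 15 held an NF-Y box (86.7%, beside 41.1%). The 10 with a CHR element were Mki67, Top2a, Cdk1, Ccnb2, Ube2c, Cdc20, Cenpf, Aurka, Plk1 and Kif11, and each of them also held an NF-Y box, as did 7.97% of all genes for both together. Of the 6 replication members, all 6 held an NF-Y box, Mcm2 alone held a CHR element, Mcm3, Mcm5 and Mcm6 held TTTGGCGC (0.585% of all genes) and Mcm3 and Mcm7 held TTCCCGC (5.29% of all genes). Neither E2F motif was found in any of the 15 mitosis windows, and Birc5 and Nusap1 held none of the motifs. Of the 4 nucleotide supply members, Rrm1 alone held an E2F motif. Of the broadly expressed members Hmgb2 held both a CHR element and NF-Y boxes. Both strands were searched, no motif is contained in another, and a match describes the sequence and does not show binding.

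The mitosis members were most abundant in the Camp/Ngp neutrophil-like cells, at a pooled summed level of 894 CPM (835 to 957), with 939, 1229, 662 and 386 in sets 1 to 4. They were the highest class in sets 1 and 2, while in set 3 basophil/mast cell-like cells (978) and T cell-like cells (1072) were higher, and in set 4 cholangiocyte-like (490) and endothelial cell-like cells (425). The basophil/mast cell-like value in set 3 rests on 1 cell, which held 27 of its 30 mitosis UMIs. Set 1 gave 622 of their 847 mitosis UMIs. T cell-like cells followed at 402 CPM, endothelial cell-like cells at 377, erythroid cell-like cells at 348 (1 cell held 124 of the 374 UMIs), NK cell/ILC1-like cells at 314 and cholangiocyte-like cells at 311. Kupffer cell-like cells stood at 291, dendritic cell-like cells at 269, hepatocyte-like cells at 229, plasma cell-like cells at 204, basophil/mast cell-like cells at 182, where 30 of the 36 UMIs came from set 3, and monocyte/macrophage-like cells at 129. By pooled level a second tier lay far below: 40.3 CPM in B cell-like, 34.7 in neutrophil-like, 26.2 in Krt8/Sox9 epithelial and 23.5 in plasmacytoid dendritic cell-like cells. The sets spread widely within most of the upper classes, so neighbours in this order overlap. The 4 low classes stayed at or under 61.0 CPM in every set, but so did single sets of several upper classes. In set 1, monocyte/macrophage-like cells had 44.1 CPM, hepatocyte-like 15.8, endothelial cell-like 19.8 and Kupffer cell-like 37.1. NK cell/ILC1-like cells had 58.8 CPM in set 2 and cholangiocyte-like cells 32.2 in set 3. Basophil/mast cell-like cells had 0 in set 2 and 40.3 in set 4. The remaining upper classes stayed above 61.0 CPM in each set. A summed level cannot tell more dividing cells from more RNA per dividing cell.

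**Figure D1:**
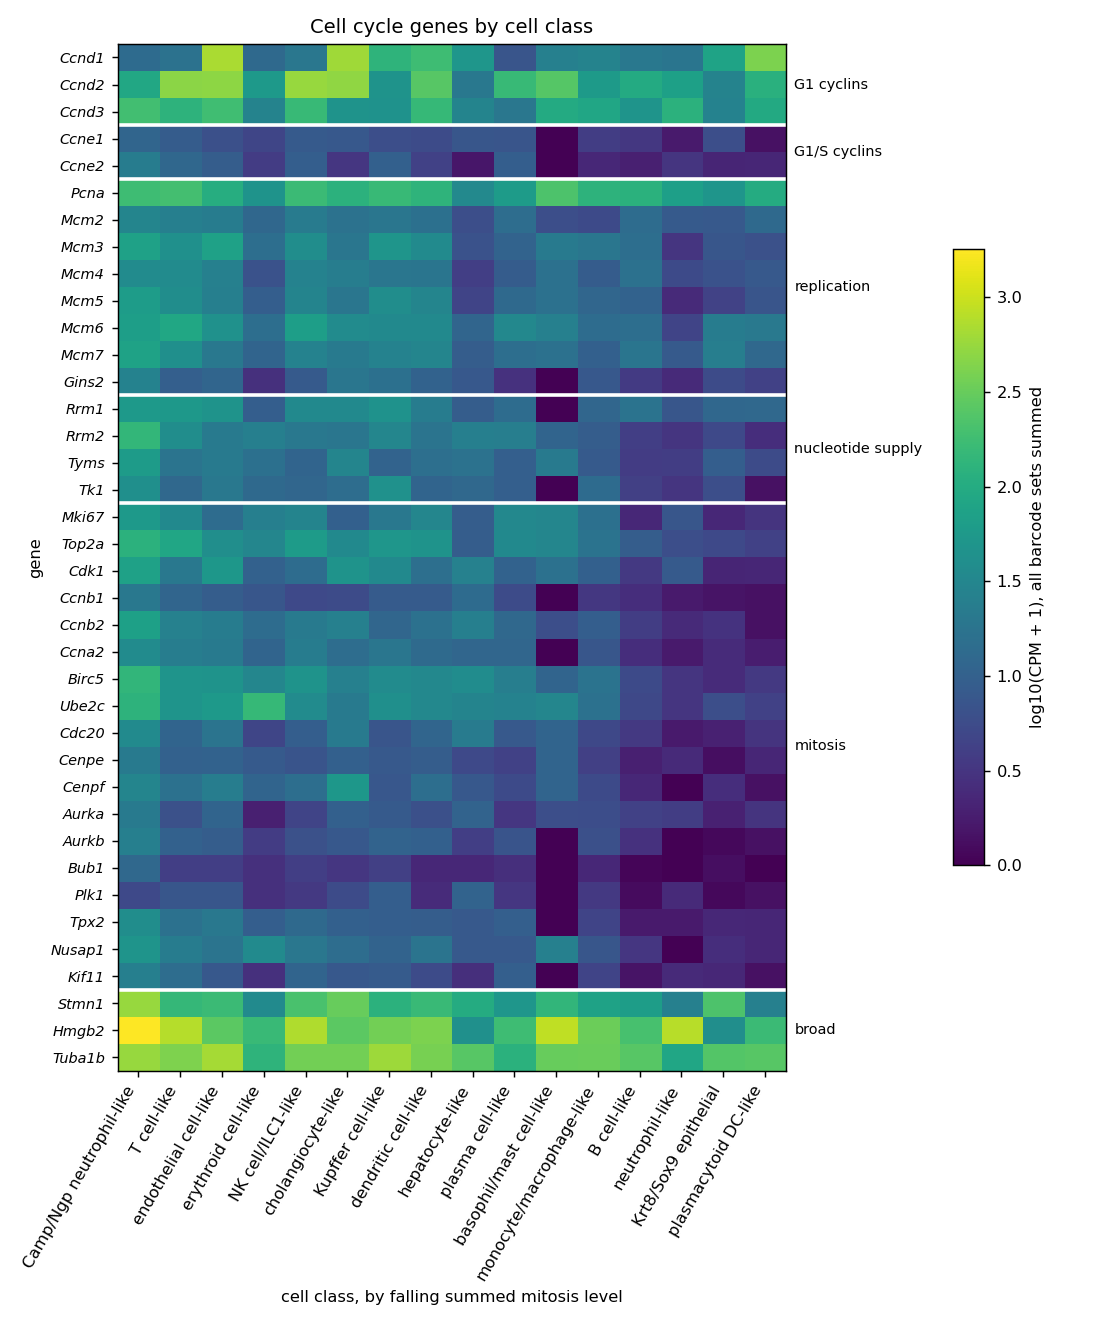
Heat map of the 38 genes (rows, by phase group) in 16 classes of cells (columns, by falling summed level of the mitosis genes); colour is log10 of CPM plus 1 over all sets. Mitosis and nucleotide genes are brightest in the Camp/Ngp neutrophil-like column and dark in the B cell-like, neutrophil-like, Krt8/Sox9 epithelial and plasmacytoid dendritic cell-like columns, whereas Ccnd1 and Ccnd2 are brightest in other columns.

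Of the 18 mitosis members, 15 had their highest pooled level in the Camp/Ngp neutrophil-like cells. The share of all genes that are highest in these cells is not given, so the count does not set the members apart from other genes. Top2a, the topoisomerase that untangles replicated chromosomes, stood there at 119, 130, 157 and 113 CPM in sets 1 to 4, against 49.8, 44.7, 235 and 51.9 in T cell-like cells. Set 3 was thus the only set in which T cell-like cells were higher. Birc5, which encodes the chromosomal passenger protein survivin, stood at 153, 167, 112 and 22.7 CPM in the Camp/Ngp cells, the last value resting on the 20 cells of set 4. Cdk1, the kinase that drives entry into mitosis, reached 71.8 CPM there (83.0, 93.1, 22.4 and 11.3 by set), followed by endothelial cell-like cells at 51.6 CPM. The proliferation marker Mki67, named outside the rule for genes, had 54.9 CPM in the Camp/Ngp cells and 34.2 in T cell-like cells.

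The other 3 mitosis members peaked elsewhere. Ube2c, the ubiquitin-conjugating enzyme of the anaphase-promoting complex, was highest in erythroid cell-like cells at 151 CPM, with 314, 47.7, 54.5 and 99.3 in sets 1 to 4. Leaving out cells with a barcode shared between sets lowered the summed mitosis level of the erythroid cell-like class from 348 to 210 CPM. Cenpf, a kinetochore protein gene, was highest in cholangiocyte-like cells at 52.2 CPM pooled, but stood there at 0 in set 3 and 34.1 in set 4, the rest coming from the 14 cells of set 2. Plk1, a mitotic kinase, was highest in hepatocyte-like cells at 9.89 CPM, with 0, 11.9, 23.1 and 9.79 in sets 1 to 4, and Kupffer cell-like cells came next at 8.32 CPM. By the median over sets instead of the pooled level, Cdc20, an activator of the anaphase-promoting complex, also peaked in hepatocyte-like cells (22.2 CPM) and the kinase gene Aurkb in Kupffer cell-like cells (12.2 CPM).

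**Figure D2:**
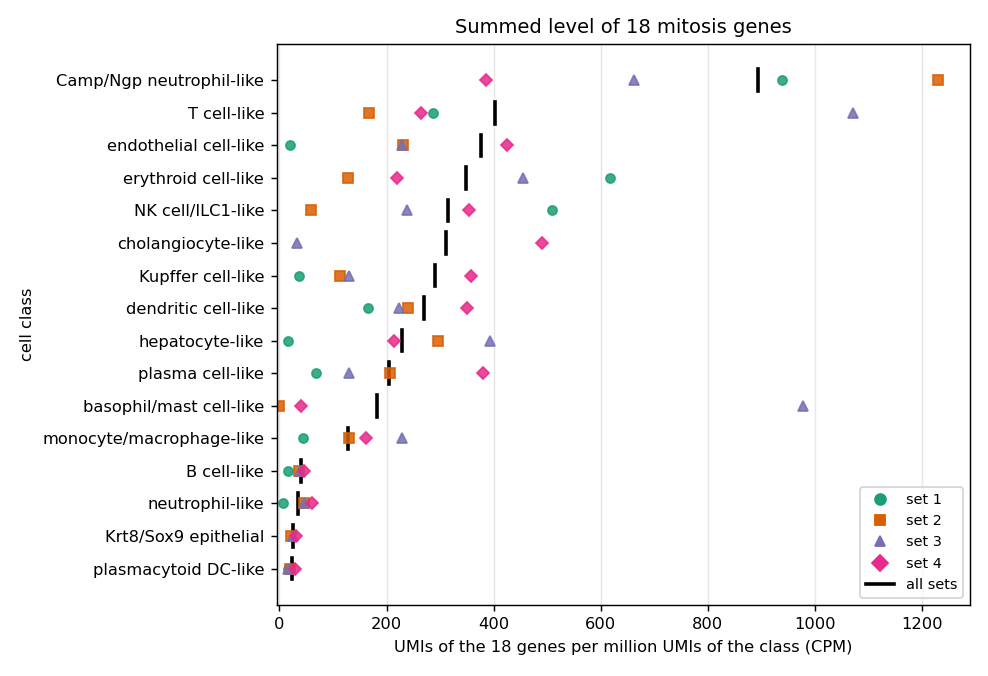
Summed level of the 18 mitosis genes in CPM (horizontal axis) for 16 classes (vertical axis); symbols are sets with at least 20 cells of the class and the black bar is the level over all sets. The sets of T cell-like cells run from 167 to 1072 CPM, while the 4 classes at the bottom stay at or under 61.0 CPM. Single sets of several classes above them also lie under 61.0 CPM.

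To set depth aside, each cell with at least 700 UMIs was thinned to 700, and cells with UMIs of 2 or more mitosis members were counted. They were 336 of 19796 cells (1.70%, exact binomial interval 1.52 to 1.89%), and 890 of 24802 without thinning (3.59%). Neutrophil-like cells, which should lack these genes, gave 1 of 818 (0.122%, 0.00310 to 0.679%) at a median of 1157 UMIs, and this is taken as the background of free RNA. The Camp/Ngp neutrophil-like cells gave 9 of 133 (6.77%, 3.14 to 12.5%) at a median of 5306 UMIs. These were 6 of 69 in set 1 and 3 of 22 in set 2, with 0 of 22 in set 3 and 0 of 20 in set 4. Kupffer cell-like cells gave 70 of 1583 (4.42%, 3.46 to 5.55%). Endothelial cell-like (2.94%), dendritic cell-like (2.80%), hepatocyte-like (2.62%) and T cell-like cells (2.59%) had overlapping intervals. Cholangiocyte-like cells gave 4 of 84, all in set 4, and erythroid cell-like cells 2 of 226 (0.885%, 0.107 to 3.16%), or 7.52% without thinning. Erythroid marker genes took 668536 CPM in the latter's cells with 2 or more mitosis members and 753086 CPM in the rest. In this class 700 UMIs thus leave few for other genes. NK cell/ILC1-like cells had 1.81% and plasma cell-like cells 1.5% (7.78% without thinning). Monocyte/macrophage-like cells had 0.942% (21 of 2230), whose interval (0.584 to 1.44%) overlaps that of the background. Overlap does not make the shares alike, and a single cell of this class held up to 59 mitosis UMIs without thinning.

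B cell-like cells gave 1 of 4287 (0.0233%), and no cell was counted among 944 plasmacytoid dendritic cell-like cells, which allows up to 0.318% at a limit of 3 cells (exact binomial limit 0.390%), or among 705 Krt8/Sox9 epithelial cells, which allows up to 0.426% (exact binomial limit 0.522%). These classes lay at or under the background. Of all counted cells without thinning, endothelial cell-like cells made up 22.2%, Kupffer cell-like cells 17.6%, T cell-like cells 13.0% and dendritic cell-like cells 8.99%. Mitosis UMIs were concentrated in few cells: the 12 hepatocyte-like cells with the most held 57.7% of the UMIs of that class, with up to 197 in a cell, and the 10 such NK cell/ILC1-like cells held 70.1%. Neutrophil-like cells had at most 2 in a cell.

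In T cell-like cells a single set stood apart. Their summed mitosis level was 287, 167, 1072 and 264 CPM in sets 1 to 4, and their thinned share was 1.66%, 0.708%, 7.73% (32 of 414 cells) and 1.35%. Set 3 was the high one, and without it the level was 252 CPM and the share 1.19%. NK cell/ILC1-like cells had 508, 58.8, 238 and 354 CPM. Set 1 held 80 of these cells, of which 1 had UMIs of 2 or more mitosis members without thinning. Leaving out the deepest 5% of cells of each class and set, where doublets would gather, took the NK cell/ILC1-like level from 314 to 71.8 CPM and the share from 1.81 to 0.275%, and the T cell-like level from 402 to 158 CPM and the share to 1.27%. Cells with UMIs of 2 or more mitosis members had a median of 6125.5 UMIs in the NK cell/ILC1-like and 4571 in the T cell-like class. Over all cells with at least 700 UMIs the medians were 1435 and 1648. Leaving out deep cells thus lowers these values whether or not they are doublets. Doublets as a source of the cells with mitosis UMIs were not tested.

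Endothelial cell-like and Kupffer cell-like cells owed much of their level to set 4. Endothelial cell-like cells had 19.8, 230, 228 and 425 CPM of mitosis members in sets 1 to 4, and Kupffer cell-like cells 37.1, 112, 130 and 358 CPM. Set 4 was the highest in both, and set 1 the lowest. Without set 4 the endothelial level was 199 CPM with a share of 1.12%, and the Kupffer level was 76.7 CPM with a share of 0.490%. Top2a in Kupffer cell-like cells was 2.06, 4.58, 29.0 and 64.7 CPM in sets 1 to 4. Whether set 4 differs by animal, genotype or handling cannot be told apart.

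Dendritic cell-like cells had 166, 241, 224 and 350 CPM of mitosis members in the 4 sets, a narrower range than in most classes. This value depends on how cells are clustered. With cell cycle genes kept, 59 of the 80 dendritic cell-like cells with UMIs of 2 or more mitosis members joined the Camp/Ngp neutrophil-like cluster, and 20 stayed. The dendritic cell-like level was then 63.0 CPM with a share of 0.351%, and the Camp/Ngp share was 20.3%. Within the monocyte/macrophage-like class, the cluster led by Gpnmb, Ms4a7 and Trem2 had 251 CPM (31.3, 73.7, 313 and 417 in sets 1 to 4) and the monocyte cluster led by Chil3 and Lyz2 had 69.5 CPM (49.1, 212, 174 and 52.3). The Gpnmb cluster was the higher of the 2 in sets 3 and 4 and the lower in sets 1 and 2.

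Hepatocyte-like cells had 15.8, 296, 393 and 214 CPM of mitosis members in sets 1 to 4, with 238, 375, 56 and 525 cells. Set 1 was low and the other sets were of like size. In set 1 not 1 of 165 cells with at least 700 UMIs was counted, against 7 of 295, 3 of 29 and 15 of 464 in sets 2 to 4. The Krt8/Sox9 epithelial cells, which carry keratin and Sox9 transcripts of a duct-like or injured epithelium, had only 22.2, 26.2 and 31.0 CPM in sets 2 to 4, despite a median of 6205 UMIs per cell. Without thinning, 10 of the 766 cells (1.31%) had UMIs of 2 or more mitosis members. Cholangiocyte-like cells, marked by Krt19 and Epcam, had 32.2 CPM in set 3 and 490 in set 4, so their place in the order rests on set 4.

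Among replication members, 6 of 8 were highest in the Camp/Ngp neutrophil-like cells, again without the share over all genes, and the summed level there was 537 CPM. Pcna, the sliding clamp of DNA polymerases, was an exception and ran from 222 CPM in basophil/mast cell-like cells (292, 326 and 191 in sets 2 to 4) through 188 in T cell-like cells to 33.5 in hepatocyte-like cells. Mcm6, a subunit of the replicative helicase, was highest pooled in T cell-like cells (85.8 CPM), with 35.1, 118, 209 and 49.5 CPM by set. By the median over sets the Camp/Ngp cells were higher (107.5 against 83.5 CPM). Mcm3 of the same helicase was about as high in endothelial cell-like cells (66.0, 89.0, 66.1 and 68.8 CPM) as in the Camp/Ngp cells (51.3, 121, 202 and 34.0 CPM), whose sets spread far more. Mcm7 was highest in the Camp/Ngp cells in 4 of 4 sets, at 75.0 CPM pooled against 41.2 in T cell-like cells.

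For nucleotide supply, Rrm2, the cell cycle-limited subunit of ribonucleotide reductase, reached 124, 205, 101 and 261 CPM in the Camp/Ngp cells. The next class, T cell-like, had 11.7, 25.5, 108 and 31.6 CPM, above the Camp/Ngp value in set 3 alone. Rrm1, its constant subunit, was nearly as high elsewhere, with 57.0 CPM in the Camp/Ngp cells, 53.8 in T cell-like and 46.1 in endothelial cell-like cells. Tk1, the thymidine kinase, was highest in Kupffer cell-like cells at 42.8 CPM pooled, just above the Camp/Ngp cells at 41.2. By the median over sets it was 17.5 CPM in Kupffer cell-like cells and 42.9 in the Camp/Ngp cells.

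The balance of mitosis to replication varied between classes and, in most, between sets. In hepatocyte-like cells mitosis UMIs made up 74.9% (72.7 to 77.0%) of the UMIs of both groups, a ratio of 2.99 to 1, with 0.263, 3.63, 3.78 and 2.87 in sets 1 to 4. Set 1, on 10 mitosis UMIs, was the exception. Erythroid cell-like cells, where 1 cell held 124 of the 374 mitosis UMIs, had a pooled ratio of 3.12 (7.04, 0.889, 1.19 and 3.09 by set). Camp/Ngp cells had 1.66 (2.29, 1.55, 0.509 and 0.944). Endothelial cell-like cells had 1.18 (0.0952, 0.684, 0.671 and 1.32), above 1 in set 4 alone. Kupffer cell-like cells had 0.825 (0.277, 0.314, 0.375 and 0.927) and NK cell/ILC1-like cells 0.833 (2.16, 0.122, 0.518 and 0.977), so pooled ratios of these classes follow single sets and their order does not hold between sets. In set 1, 1 of the 80 NK cell/ILC1-like cells had UMIs of 2 or more mitosis members without thinning. The low classes had several replication UMIs for each mitosis UMI: the ratio was 0.361 in neutrophil-like, 0.216 in Krt8/Sox9 epithelial, 0.196 in B cell-like and 0.142 in plasmacytoid dendritic cell-like cells. B cell-like cells still had 205 CPM of replication members, of which Pcna alone made 119.5.

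**Figure D3:**
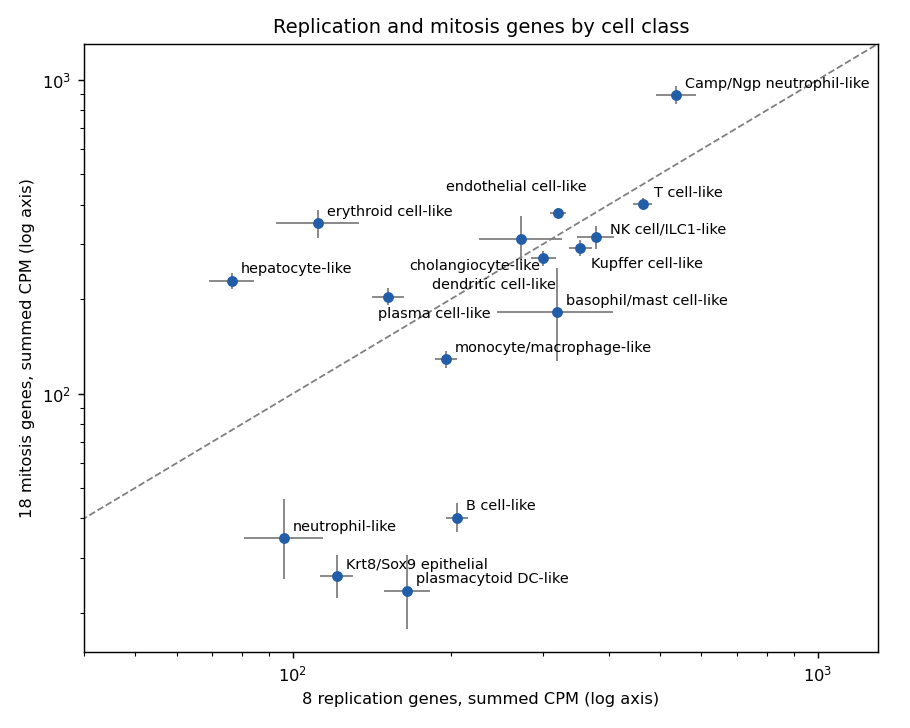
Summed CPM of 8 replication genes (horizontal, log axis) against 18 mitosis genes (vertical, log axis), 1 point per class over all sets, with Poisson 95% intervals and a dashed line of equal levels. Hepatocyte-like and erythroid cell-like cells lie above the line at ratios of 2.99 and 3.12, and B cell-like, neutrophil-like, Krt8/Sox9 epithelial and plasmacytoid dendritic cell-like cells lie far below it.

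Of the D cyclins, Ccnd1 did not follow mitosis. Ccnd1 was highest in endothelial cell-like cells in 4 of 4 sets (511, 996, 1046 and 634 CPM) and next in cholangiocyte-like cells (580 and 622 CPM in sets 3 and 4). Plasmacytoid dendritic cell-like cells, with the lowest mitosis level, had 327, 662, 597 and 298 CPM of Ccnd1, above dendritic cell-like cells (196, 182, 233 and 134 CPM) in every set. T cell-like and Camp/Ngp cells, the highest in mitosis, had 15.8 and 12.7 CPM pooled.

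Ccnd2 was high in lymphocytes, with 516, 655, 698 and 515 CPM in NK cell/ILC1-like cells and 479, 644, 472 and 429 in T cell-like cells. Endothelial cell-like cells overlapped both at 627, 600, 659 and 473 CPM. Ccnd3 was nearly equal in the Camp/Ngp cells (184 CPM) and endothelial cell-like cells (181 CPM), and neutrophil-like cells kept 124 CPM of it. Hepatocyte-like cells were low in all 3 cyclins, with 50.2, 19 and 28.7 CPM of Ccnd1, Ccnd2 and Ccnd3, although mitosis members were found in them. The E-type cyclins were sparse, with Ccne1 at 10.6 CPM and Ccne2 at 22.2 CPM in the Camp/Ngp cells, their highest class, on 31 UMIs in all, and T cell-like cells had 19.2 CPM of both together.

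**Figure D4:**
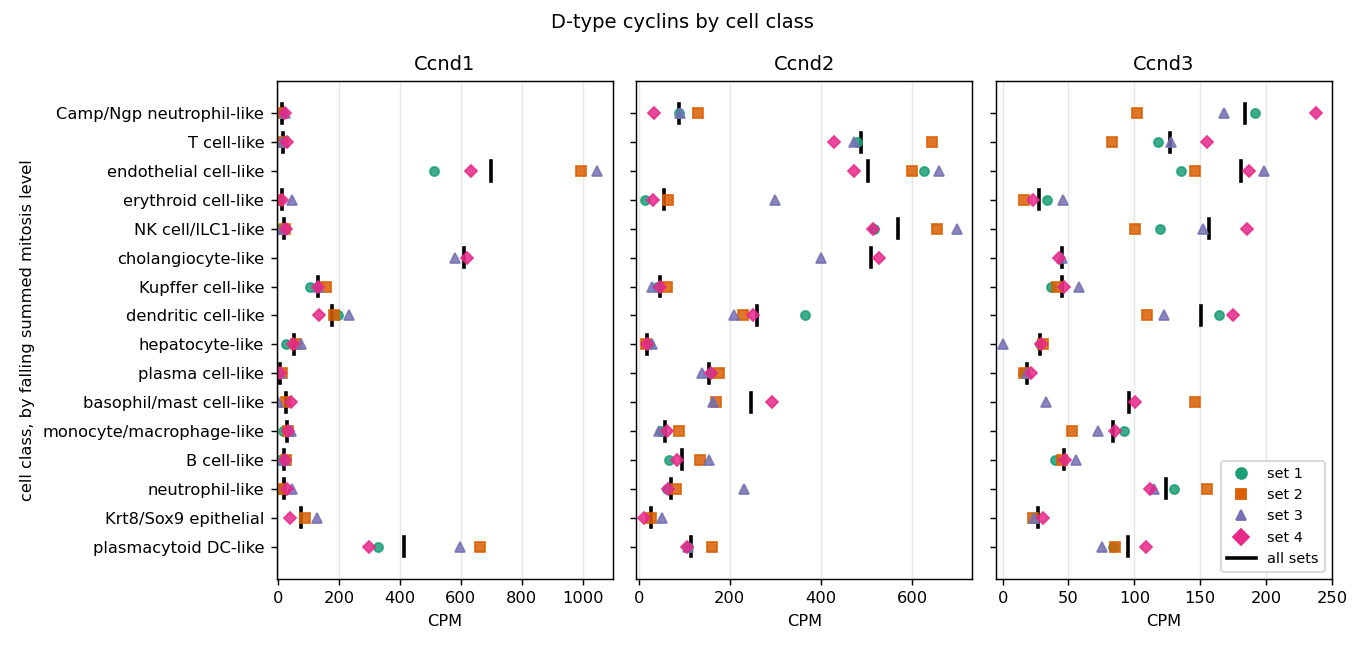
CPM of Ccnd1, Ccnd2 and Ccnd3 (horizontal axes, each with its own scale) for 16 classes ordered by falling summed mitosis level; symbols are sets and the black bar is the level over all sets. Ccnd1 is high in endothelial, cholangiocyte and plasmacytoid dendritic cell-like cells and Ccnd2 in NK, T, endothelial and cholangiocyte-like cells. Ccnd1 shows no order along the mitosis axis.

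Among the broadly expressed genes, Hmgb2, a chromatin protein gene, was highest in the Camp/Ngp cells in 4 of 4 sets at 1796 CPM, and neutrophil-like cells, with next to no mitosis UMIs, had 1043, 502, 807 and 595 CPM. Stmn1, a microtubule-destabilising protein gene, stood at 560 CPM in the Camp/Ngp cells and at 313 in cholangiocyte-like cells. The Krt8/Sox9 epithelial cells were next, with 151, 186 and 283 CPM of Stmn1 in sets 2 to 4 and next to no mitosis UMIs. Tuba1b, an alpha-tubulin gene, was highest in endothelial cell-like cells at 376, 511, 629 and 686 CPM, which overlapped the 268, 712, 652 and 621 CPM of Kupffer cell-like cells. High Hmgb2 or Stmn1 in a class was thus found with and without mitosis members.

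Within single cells, the groups were compared between the 336 thinned cells with UMIs of 2 or more mitosis members and the other 19460. A nucleotide supply gene was detected in 34.2% of the former (29.2 to 39.6%) and 2.84% of the latter, and a replication gene in 35.7 and 14%. An E cyclin was detected in 5.36 and 0.560%, and Rrm2 in 14.9 and 0.581%. For the D cyclins the shares were 24.4% (19.9 to 29.4%) and 23.8% (23.2 to 24.4%), which overlap. Within endothelial cell-like cells a D cyclin was found in 41.0% of the 78 counted cells and 57.3% of the others, where 66 of the 78 came from set 4. Within Kupffer cell-like cells the shares were 7.14% (2.36 to 15.9%) and 14.2%, within T cell-like cells 34.0 and 36.6%, within dendritic cell-like cells 28.6 and 30.9% and within monocyte/macrophage-like cells 14.3 and 10.0%, so in these 4 classes the difference was within counting error. The 890 cells counted without thinning had a median of 5388 UMIs, against 1893 over all cells with at least 700. Pearson correlations across cells were weak (median 0.081 over 153 pairs of mitosis members in 19796 cells that share libraries) and are no finding in counts this sparse.

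**Figure D5:**
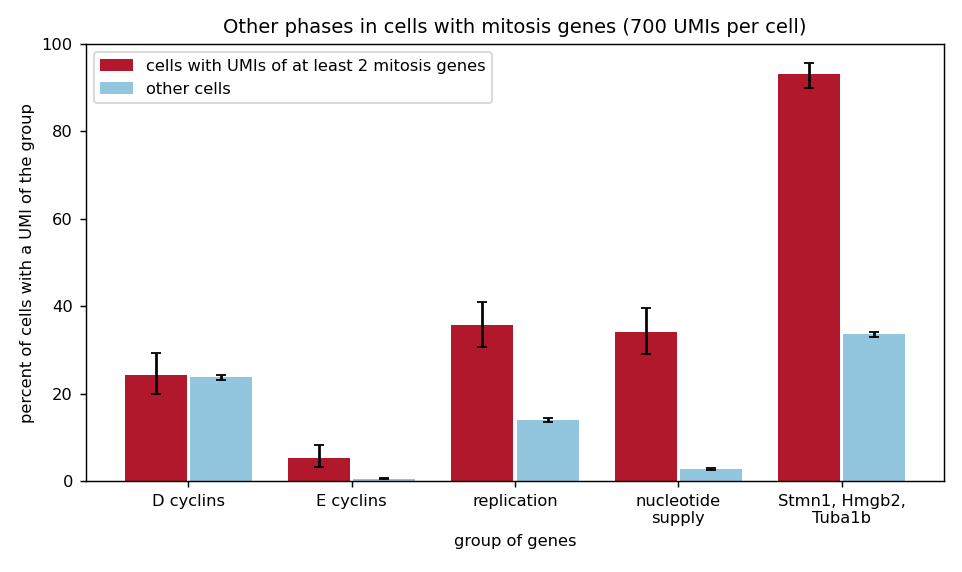
Percent of cells, thinned to 700 UMIs, with a UMI of each other group of members (vertical axis), for cells with UMIs of at least 2 mitosis genes (red) and other cells (blue); error bars are exact binomial 95% intervals. The bars differ for nucleotide supply (34.2 and 2.84%) and replication (35.7 and 14%) and overlap for D cyclins (24.4 and 23.8%).

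Related classes were compared in 5 pairs, within each set, by the log2 ratio of CPM plus 10. A gene was called when it differed at least 2-fold the same way in every set with 20 cells of both classes, and its mean over the pair had to reach 20 CPM. Few members reach that level, so the medians over all 18 mitosis members are given too. Between Krt8/Sox9 epithelial and hepatocyte-like cells, 9 of 38 members passed the filter and 1, Birc5, was called lower, with log2 ratios of -2.04, -2.81 and -2.21 in sets 2 to 4 (4.73% of all 5285 genes tested were called lower and 5.47% higher). That call was lost without the deepest 5% of cells, at a pseudocount of 50 CPM and at a filter of 50 CPM. The median of the 18 mitosis members, of which 2 passed the filter, was -1.08 (-1.32 to -0.70), against 0.28 for the genes that passed. These medians set genes of unlike level side by side. Below 0 in every one of the 3 sets lay 15 of the 18, and the share of all genes doing so is not given. At a pseudocount of 1 or 50 CPM the mitosis median was -2.96 or -0.30.

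Between plasmacytoid and other dendritic cell-like cells, 10 members passed and 3 were called lower: Top2a (median log2 ratio -2.29), Stmn1 (-2.04) and Mcm3 (-1.47), beside 4.64% of 5017 genes called lower and 7.89% higher. The mitosis median was -0.87 (-1.15 to -0.61), with 13 of 18 below 0 in every set, a count given without the share over all genes. With cell cycle genes kept in the clustering no member was called and the median was -0.20. For Kupffer cell-like against monocyte/macrophage-like cells, 12 members passed and Ccnd1 was called higher, at 2.16, 2.01, 1.47 and 1.72 in sets 1 to 4 (3.77% of 5255 genes were called higher and 2.00% lower), and the mitosis median was 0.01.

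Of the 8 members that passed between plasma cell-like and B cell-like cells none was called in either direction, where 3.15% of 3836 genes were called higher and 25.5% lower. The mitosis median over all 18 members, of which 1 passed the filter, was 0.51 (0.23 to 0.97). That of the 3836 genes that passed was -0.88, so these medians again cover genes of unlike level. Above 0 in every set lay 11 of the 18, again without the share over all genes. Mki67, which missed the filter, was higher in plasma cell-like cells in all 4 sets (1.09, 2.13, 1.26 and 2.46). Between T cell-like and NK cell/ILC1-like cells none of the 21 members that passed was called, beside 0.818% of 4891 genes called higher and 1.47% lower. The mitosis median there ran from -0.45 to 1.35 between sets, so that no direction held.

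The wider cell cycle lists gave the following. Of the inhibitors of cyclin-dependent kinases, Cdkn1a was highest in Krt8/Sox9 epithelial cells, at 1849, 1138 and 2584 CPM in sets 2 to 4, as was Cdkn2a (313, 51.8 and 575 CPM), where mitosis members were nearly lacking. Endothelial cell-like cells had 221, 114, 168 and 312 CPM of Cdkn2a together with mitosis members. Cdkn1b stood at 70.0 CPM in T cell-like cells, 64.4 in neutrophil-like and 56.9 in B cell-like cells. The 10 genes of this list summed to 2627 CPM in Krt8/Sox9 epithelial cells, 916 in endothelial cell-like cells and 366 in hepatocyte-like cells.

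Among E2F and MuvB-linked factors, Tfdp1, the partner of E2F proteins, was highest in the Camp/Ngp cells (70.7 CPM), E2f4, an E2F of resting cells, in plasmacytoid dendritic cell-like cells (68.6 CPM) and Lin54, a subunit of MuvB, in NK cell/ILC1-like cells (46.6 CPM). Of further replication genes, Dut was highest in the Camp/Ngp cells (228 CPM), while Slbp, which binds histone mRNA, and Rfc2, a clamp loader subunit, peaked in basophil/mast cell-like cells (268 and 131 CPM), Rfc2 on 26 UMIs. Among further mitosis genes Cks2, a partner of cyclin-dependent kinases, stood at 1571 CPM in basophil/mast cell-like cells, 437 in neutrophil-like cells and 353 in the Camp/Ngp cells, Pttg1 (securin) was highest in neutrophil-like cells (129 CPM) and the checkpoint gene Bub3 in endothelial cell-like cells (108 CPM). The histone genes Hist1h2ap and H2afx were highest in the Camp/Ngp cells (284 and 165 CPM), and H2afz in dendritic cell-like cells (2258 CPM).

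Over 41 points, each a class in a set with at least 100 cells, the genes outside the members whose log2(CPM + 10) was most like that of the summed mitosis members were Pclaf (Pearson r 0.838), Cdca3 (0.833), Lockd (0.801), Cdca8 (0.789), Cenpw (0.781), Nuf2 (0.775), Chaf1a (0.768), Sgo1 (0.766), Ska1 (0.755) and Asf1b (0.752). The points share sets and depth, so these values describe the pattern only. Pclaf encodes a PCNA-binding factor, Cdca8 a chromosomal passenger protein, Nuf2 and Cenpw kinetochore proteins, and Chaf1a and Asf1b histone chaperones of replication. Among the D cyclins the same measure was 0.0316 for Ccnd1, 0.463 for Ccnd2 and 0.269 for Ccnd3. Replication members ran from 0.268 (Pcna) to 0.712 (Mcm5), a range that holds Ccnd2 and Ccnd3 but not Ccnd1.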

How the data were processed

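The deposited table held natural log values, made by the authors as ln(1 + UMIs of the gene per 10000 UMIs of the cell), which the file's values bear out since every cell sums to 10000 after back-transformation. Per the submitters' processing notes CASAVA (version 1.8), Cell Ranger, Seurat and the mm10 build were used, the versions of Cell Ranger and Seurat not given in the sources used here. Whole UMIs were recovered for 100% of values (tolerance 0.001), 65920312 in all. The table held cells with at least 201 genes, and 0 per-sample columns were left unused. No doublet caller was run, and the deepest 5% of cells were left out as an alternative.

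Cells were clustered with scanpy 1.11.5 and the Leiden routine of igraph 0.11.9 in Python 3.11.15 (2000 variable genes, 30 principal components, 15 neighbours, resolution 1.0, seed 1). A cluster took the name of the 1 of 17 marker lists that led it; this rule and the Camp/Ngp split were set after the clusters were seen. The members and lists were chosen with earlier results of these data known. Named with set values were the 2 to 4 members of each group with the highest mean level, members whose highest class differed from that of their group, up to 3 genes of each other list, and the 10 genes most like the mitosis sum. Intervals are exact, at 95%. A limma test between genotypes had been planned and could not be run, because cells are not mapped to samples. The ratios between classes were tried on simulated counts with no spread between sets or cells and with changes in well-expressed genes only. Most members lie lower, so this does not speak to them. Numerical work used numpy 2.4.6 and scipy 1.17.1, and figures matplotlib 3.10.9.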

Additional observations from a re-analysis of the deposited data

How the results depend on the processing

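Of 552 recomputed values (cells with a barcode shared between sets were left out as a choice made after seeing the data), 474 moved by less than the spread over sets or stayed within 1.5 times a count, and 78 moved further. None changed sign, but levels, shares and counts cannot do so, and only the median log2 ratios could. Thinning to 1500 UMIs moved 13 of 14 values further. The causes were not tested. Thinning to 1500 UMIs gave shares of cells with 2 or more mitosis members of 18.1% in Camp/Ngp neutrophil-like, 7.53% in Kupffer cell-like, 7.24% in T cell-like, 5.31% in endothelial cell-like, 5.07% in dendritic cell-like, 4.84% in NK cell/ILC1-like, 4.78% in plasma cell-like, 3.19% in erythroid cell-like and 1.64% in monocyte/macrophage-like cells. It gave 0.298% in Krt8/Sox9 epithelial, 0.157% in plasmacytoid dendritic cell-like, 0.0981% in B cell-like and 0% in neutrophil-like cells. Asking for 3 or more mitosis members gave 1.20% in dendritic cell-like, 0.774% in NK cell/ILC1-like, 0.448% in monocyte/macrophage-like and 0% in B cell-like and neutrophil-like cells. Cells with at least 500 genes gave 2.63% in erythroid cell-like and 0% in neutrophil-like cells. Without the deepest 5% of cells the share was 0.275% in NK cell/ILC1-like, 0.427% in monocyte/macrophage-like and 0% in B cell-like cells. With cell cycle genes kept in the clustering it was 20.3% in Camp/Ngp neutrophil-like and 0.351% in dendritic cell-like cells. Leaving out each barcode set in turn gave 0.490 to 5.07% in Kupffer cell-like, 1.12 to 3.58% in endothelial cell-like, 0 to 0.209% in neutrophil-like and 0 to 0.0259% in B cell-like cells.

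The median log2 ratio of the mitosis members between Krt8/Sox9 epithelial and hepatocyte-like cells was -0.75 without shared barcodes, -0.72 without the deepest cells, -0.71 as a mean over cells, -1.42 with the median of the genes that passed the filter set to 0, and -2.96 and -0.30 at pseudocounts of 1 and 50 CPM. Between plasmacytoid and other dendritic cell-like cells it was -0.20 with cell cycle genes kept, -0.52 without the deepest cells, -0.63 as a mean over cells, -1.14 with the median of the genes that passed the filter set to 0, and -3.03 and -0.23 at pseudocounts of 1 and 50. Between plasma cell-like and B cell-like cells it was 1.44 with the median of the genes that passed the filter set to 0, and 1.69 and 0.13 at those pseudocounts.

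The count of members called lower between Krt8/Sox9 epithelial and hepatocyte-like cells, 1 as reported, was 2 at clustering resolutions of 0.5 and 2.0, with cell cycle genes kept, as a mean over cells and at a pseudocount of 1. It was 0 without the deepest cells, at a pseudocount of 50 and at a filter of 50 CPM, 5 with no filter, and 1 to 4 without a set in turn. The count called lower in plasmacytoid dendritic cell-like cells, 3 as reported, was 6 at resolution 0.5 and with no filter, 0 with cell cycle genes kept, and 1 without the deepest cells, as a mean over cells, at a pseudocount of 50 and at a filter of 50 CPM. The count called higher there was 1 at resolution 0.5 and 0 to 1 without a set in turn. Between plasma cell-like and B cell-like cells 1 member was called lower as a mean over cells and at a pseudocount of 1, 0 to 2 without a set in turn, and 1 higher with no filter or with the median of the genes that passed the filter set to 0. At a pseudocount of 50 none was called higher in Kupffer cell-like cells. No paired analysis was possible because the cells carry no sample or replicate label. Depth limits the low classes: shares under the floors given cannot be told from 0.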

Other observations

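Other genes were compared, without thinning, between cells with UMIs of 2 or more mitosis members and the remaining cells of the same class; these genes were chosen after their values were seen, no test was made, and the cells with mitosis UMIs are the deeper ones. In the Camp/Ngp neutrophil-like class the 39 such cells had more RNA of the primary granule proteases and peroxidase, which promyelocytes make. Elane stood at 7485, 6026 and 3336 CPM in sets 1 to 3, against 657, 2492 and 1728 in the remaining cells, higher in each of the 3 sets. Prtn3 was at 3668 CPM pooled against 890, and Mpo at 2961 against 899. Of later granule genes, Ltf was at 1718 CPM against 4235 and S100a8 at 51566 against 151826, lower in each of the 3 sets. Ngp was at 13619 against 23427 but nearly equal in set 2 (7349 against 7475), and Camp at 17763 against 21842 but the other way in set 2 (14616 against 11713). In set 3 the 7 cells with mitosis UMIs had 0 UMIs of Camp, Ngp and Ltf.

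In erythroid cell-like cells, the 20 with mitosis UMIs had 99.5 CPM of the transferrin receptor gene Tfrc against 9.06 in the rest and 1780 against 258 of Car2. In plasma cell-like cells the 60 with mitosis UMIs had 437 CPM of Ighg2c against 11199 and 30189 of Jchain against 55371, while Xbp1, the factor that drives secretion in plasma cells, was close at 1062 against 1234. In T cell-like cells the 116 had 32.2 CPM of Tcf7, a gene of naive and memory T cells, against 134, with set 2 the other way on 8 cells (270 against 181), and 449 of Gzmb, an effector protease gene, against 281. In hepatocyte-like cells the 66 had 52580 CPM of Alb against 55476 in the rest, and in Kupffer cell-like cells the 157, of which 152 lay in set 4, had 1689 of Clec4f against 1844. In dendritic cell-like cells the 80 had 91.6 CPM of Ccr7, a gene of migrating dendritic cells, against 368. Cd209a (145.4 against 491.2) and Ccl22 (39.84 against 169.6) were lower too. Xcr1 (131.5 against 61.89), Clec9a (77.69 against 49.07) and Flt3 (149.4 against 132.2) were higher. With cell cycle genes kept in the clustering, 59 of these 80 cells joined the Camp/Ngp neutrophil-like cluster.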
